A study of Drosophila melanogaster with 18 samples.

Results

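The genes described here are 9 members of the core cell death pathway of Drosophila melanogaster: hid, rpr, grim, skl, Diap1, Dronc, Dark, Drice and Dcp-1. They were taken by FlyBase identifier and symbol, and all 9 were found among the 17753 entries of the count table. RNA was measured in wild-type DL1 cells, a haemocyte-like line, in 18 libraries that form 6 groups of 3. In 5 groups 2 µg of dsRNA (double-stranded RNA) was added to the bathing medium, from which these cells take it up and silence the matching gene, and all cells were grown for 3 days. The dsRNA was directed against IntS4 or IntS6, subunits of the RNA-cleaving Integrator complex, against mts, the catalytic subunit of protein phosphatase 2A, against Pp2A-29B, its scaffold subunit, or against B-gal, a bacterial gene used as the control. The Mock group was mock treated, the 4 dsRNAs against fly genes are called gene-directed below, and each group has 1 library in each of the biological replicate sets A, B and C.

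In flies, the caspases that dismantle a dying cell are held in check by the inhibitor of apoptosis protein Diap1, which binds the initiator caspase Dronc and the effector caspases Drice and Dcp-1. The small proteins encoded by hid, rpr, grim and skl bind Diap1 and displace or destabilise it, so the transcription of these IAP antagonist genes is a main switch of developmental and stress-induced cell death. Freed Dronc assembles on the adaptor Dark into the apoptosome, which cleaves and activates the effector caspases, and haemocyte-like fly lines carry this pathway. Transcript levels do not report on caspase activity, which was not measured.

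Libraries held 13445318 to 19298644 counts, of which 65.1 to 74.8% were ribosomal RNA, with 73.0 to 74.8% in the mts libraries and 66.3 to 71.8% in the B-gal libraries. Levels are given as CPM, the usual count relative to the library total, here after that total was scaled by its TMM factor. The targeted transcript was lower with mts dsRNA, at 1218 (set A), 675 (B) and 781 (C) counts, and the B-gal libraries held 1941 to 2956. It was also lower with Pp2A-29B dsRNA, at 718, 655 and 773 counts against 2176 to 2958. Libraries labelled IntS4 dsRNA held more IntS4 counts (3111, 853 and 401) than the B-gal libraries (179 to 216), and those labelled IntS6 dsRNA held more IntS6 counts (2682, 795 and 722) than the B-gal libraries (482 to 517). Counts over the whole gene therefore show no loss of the targeted transcript under these labels. Whether reads of the added dsRNA are among these counts was not tested, so they cannot show whether IntS4 or IntS6 was silenced. Every direction given below for these groups is that of the libraries labelled IntS4 or IntS6 dsRNA.

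The haemocyte markers He, srp and ush summed to 208 to 236 CPM in the B-gal libraries and to 264 to 403 CPM in the libraries of the 4 gene-directed dsRNAs. All 3 were called higher in both Integrator-labelled groups, while with mts and Pp2A-29B dsRNA only He was, at log2 fold changes of 2.23 and 1.63. Sums of blood cell type markers lay above those of the B-gal libraries, except that of the crystal cell markers with mts dsRNA. Not every marker was called. For IntS4, IntS6, mts and Pp2A-29B, 5, 6, 4 and 4 of the 7 plasmatocyte markers were higher. So were 3, 3, 5 and 5 of the 5 lamellocyte markers and 1, 2, 0 and 1 of the 2 tested crystal cell markers, and none was lower. Of all tested genes, 27, 26.4, 26.6 and 21% were higher. The 7 plasmatocyte markers summed to 71.8 to 80.6 CPM with B-gal dsRNA, 566 to 915 in libraries labelled IntS4 dsRNA, 594 to 906 in those labelled IntS6 dsRNA, 207 to 251 with mts and 181 to 200 with Pp2A-29B dsRNA, and none of the 7 was at 0 in any group. The 5 lamellocyte markers summed to 277 to 333 CPM with B-gal dsRNA, and to 709 to 798, 488 to 569, 1130 to 1771 and 648 to 1025 CPM in the same order, again with none at 0. The 4 crystal cell markers summed to 0.84 to 1.19, 23.4 to 26.8, 7.66 to 13.2, 0.84 to 1.13 and 1.52 to 2.84 CPM, with PPO1 at 0 in both Integrator-labelled groups. The fat body markers Lsp1beta, Lsp2 and Yp1 were all at 0 in the B-gal libraries and reached 0.259 CPM at most elsewhere, and repo, a glial marker, ran from 6.95 to 10.6 CPM in libraries labelled IntS4 dsRNA and from 1.56 to 3.20 CPM in those labelled IntS6 dsRNA, against 0.057 to 0.341 CPM with B-gal dsRNA. The 3 muscle markers summed to 1.64 to 2.70 and 1.12 to 1.22 CPM in these groups, against 0.057 to 0.167 CPM. The 3 neuron markers summed to 19.6 to 22.2 and 25.8 to 29.0 CPM, against 13.0 to 19.9 CPM with B-gal dsRNA. The germ line markers vas, nos and bam, all too low to be tested, summed to 0.278 to 0.568 CPM with B-gal dsRNA. For IntS4, IntS6, mts and Pp2A-29B their sums were 0.656 to 1.53, 0.461 to 0.841, 0.592 to 0.643 and 0.803 to 1.19 CPM. The part that these shifts have in the values below was not tested. In such bulk RNA a change in the number of cells of a type and a change in the RNA per cell cannot be told apart.

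The IAP antagonist genes lie together on chromosome arm 3L, all on the minus strand (BDGP6): hid (FBgn0003997) at 18167745 to 18185641, grim (FBgn0015946) at 18302719 to 18304417, rpr (FBgn0011706) at 18397535 to 18398435 and skl (FBgn0036786) at 18438561 to 18439942. Of these, hid and rpr were low in the control cells and higher in every library of the 4 gene-directed dsRNAs. Transcripts of skl were seen in few libraries and those of grim in none. Levels of hid and rpr were highest in the libraries labelled IntS4 dsRNA.

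For hid, 7, 12 and 6 counts were seen in sets A, B and C with B-gal dsRNA, which is 0.478, 0.681 and 0.334 CPM. The libraries labelled IntS4 dsRNA held 98, 127 and 84 counts, or 7.15, 6.42 and 5.51 CPM. Those labelled IntS6 dsRNA held 71, 55 and 34 counts, or 3.98, 3.73 and 2.24 CPM. All 6 Integrator-labelled libraries were thus above all B-gal libraries, and the lowest value labelled IntS4 was above the highest labelled IntS6. With mts dsRNA the counts were 45, 29 and 25 (2.89, 2.05 and 2.11 CPM), and with Pp2A-29B dsRNA 38, 31 and 47 (2.35, 2.04 and 3.04 CPM). Values of these phosphatase groups overlapped each other and the IntS6-labelled libraries, and lay above every control library, since Mock libraries held 14, 11 and 8 counts. The log2 fold change of hid against B-gal was 3.65 (SE 0.30, adjusted p = 7.8e-09) in the libraries labelled IntS4 dsRNA and 2.72 (SE 0.31, adjusted p = 8.9e-07) in those labelled IntS6 dsRNA. It was 2.23 with mts dsRNA (SE 0.33, adjusted p = 1.8e-05) and 2.30 with Pp2A-29B dsRNA (SE 0.32, adjusted p = 2e-05).

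For rpr, whose product also binds mitochondria and Diap1, the control cells were near the limit of detection. The B-gal libraries held 0, 2 and 1 counts and the Mock libraries 1, 0 and 0. The libraries labelled IntS4 dsRNA held 120, 147 and 126 counts (8.76, 7.43 and 8.27 CPM). The other groups held fewer, with 65, 23 and 42 counts in libraries labelled IntS6 dsRNA (3.64, 1.56 and 2.77 CPM). Counts were 36, 15 and 54 with mts dsRNA (2.31, 1.06 and 4.56 CPM) and 25, 17 and 44 with Pp2A-29B dsRNA (1.55, 1.12 and 2.85 CPM). These last 3 groups overlapped one another, and none overlapped a control library or a library labelled IntS4 dsRNA. Since the B-gal libraries held 3 counts in all, the fold is given as the ratio of summed normalised counts with its exact 95% counting interval. It was 135 (45.9 to 658) in libraries labelled IntS4 dsRNA, 45.6 (15.2 to 224) in those labelled IntS6 dsRNA, 42.3 (14.1 to 208) with mts dsRNA and 30.8 (10.2 to 152) with Pp2A-29B dsRNA. The fitted log2 fold changes depend on the prior count and were 6.91, 5.32, 5.27 and 4.77 in that order (adjusted p = 6.7e-08, 1e-05, 1.5e-05 and 0.00011). Without the B-gal library of set B, which held 2 of the 3 counts, they were 7.72, 6.12, 6.08 and 5.58, with Mock as the control they were 8.21, 6.61, 6.56 and 6.06, and without the mts library of set C the mts value was 4.67.

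Counts of skl were 8, 14 and 1 in libraries labelled IntS4 dsRNA, 7, 0 and 1 in those labelled IntS6 dsRNA and 0, 0 and 1 with mts dsRNA, and 0 in all Mock, B-gal and Pp2A-29B libraries. Most of these reads came from 3 libraries, and skl did not pass the filter on low counts. Its summed normalised counts were set against a floor of 3 counts over the B-gal group. The ratio was 7.90 in libraries labelled IntS4 dsRNA and 2.80 in those labelled IntS6 dsRNA. The floor covers counting error in the B-gal group only and the skl counts were taken as exact, so these ratios are not lower bounds. When genes were not filtered, the adjusted p of skl was 0.0017 and 0.0503 in edgeR's test, and in DESeq2 it was 0.042 and 0.19. For grim, 0 counts were seen in all 18 libraries, which allows a level of up to 0.0105 CPM over all of them, for counting error only. The noncoding genes that overlap grim, asRNA:CR45974 and lncRNA:CR45975, were also without a count.

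**Figure D1:**
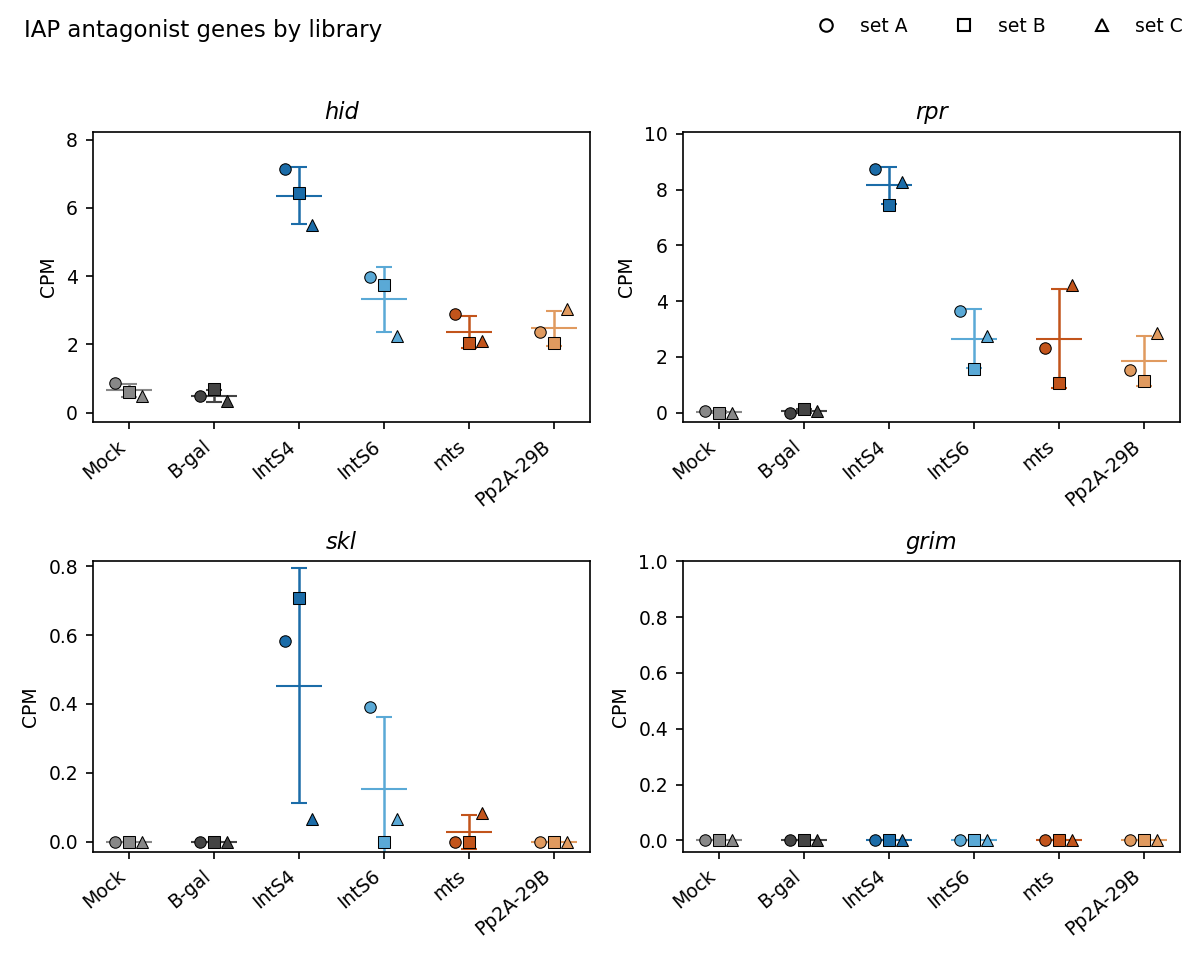
CPM of hid, rpr, skl and grim in each library (symbols by replicate set), with the mean and SD of each group of 3 as bars; the scale differs between panels. The libraries labelled IntS4 dsRNA lie at 5.51 to 7.15 CPM for hid and 7.43 to 8.76 CPM for rpr, above all other libraries, and grim is at 0 throughout.

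The filter on low counts bears on these values. It asked for about 0.634 CPM, a level that hid reached in 2 of 6 control libraries and in 12 of 12 libraries of the gene-directed dsRNAs, and rpr in 0 of 6 and 12 of 12. Both therefore passed through the groups in which they were high, while the other 5 tested genes reached this level in all 18 libraries.

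The interval from hid to skl spans 272198 bases and holds 13 other annotated genes, 4 of them protein coding. None of the 13 had enough counts to be tested, 11 were without a count in any library, and the highest value of any was 0.136 CPM. Beyond skl, the next protein-coding gene, CG32196, was also higher, its log2 fold change being 2.67 with mts dsRNA (adjusted p = 0.0017), 2.63 with Pp2A-29B dsRNA (0.0026) and 2.31 in libraries labelled IntS6 dsRNA (0.0065). It reached the filter level in 0 of 6 control libraries and 9 of 12 libraries of the gene-directed dsRNAs, so that it too passed through the groups in which it was high. Its mean was 0.154 CPM with B-gal dsRNA and 0.296 CPM in Mock, and no library held more than 1.27 CPM. Against Mock its values were 1.80 (adjusted p = 0.013), 1.77 (0.018) and 1.44 (0.049) in the same order. In libraries labelled IntS4 dsRNA it was 1.64 (adjusted p = 0.06), a value that passed under the replicate block (0.049) and without the set A library of that label (0.0093). Against Mock it was 0.78 (adjusted p = 0.32), and without the set C library of that label 0.70 (0.48). Beyond hid, CG13699 reached 0.0706 CPM at most and was not tested. Along this stretch of 3L, counts were thus seen mainly at hid and rpr, which lie on either side of the silent grim.

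**Figure D2:**
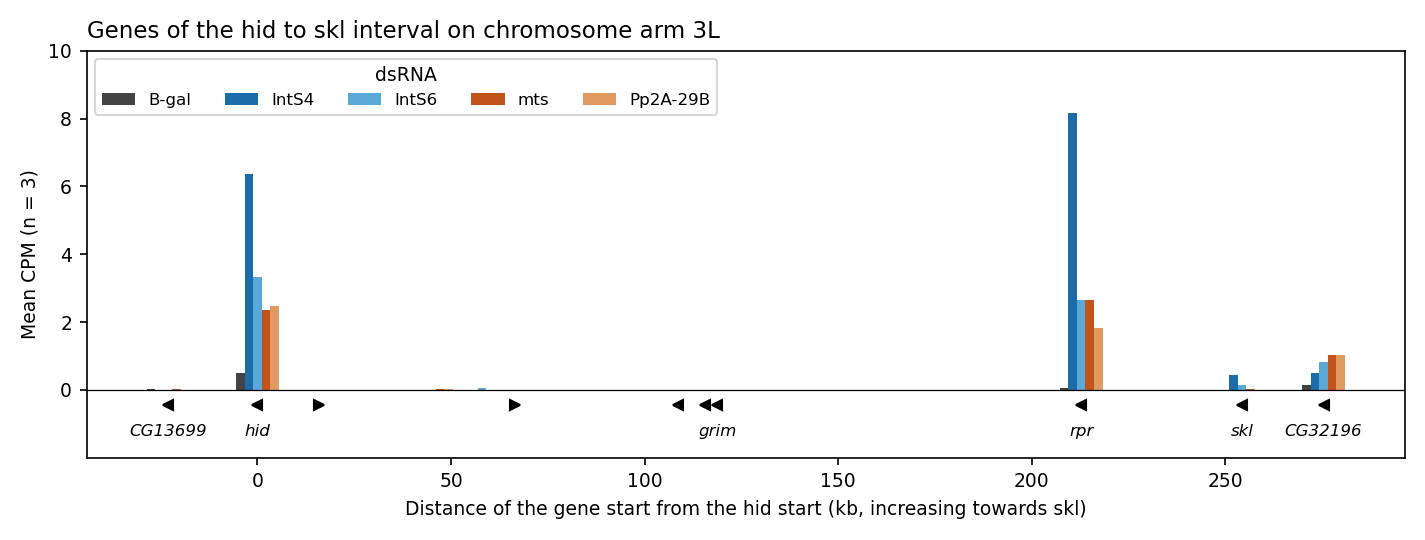
Mean CPM (n = 3) of the genes between hid and skl and of their protein-coding neighbours, against the distance of each gene start from that of hid in kilobases; triangles mark protein-coding genes and point in the direction of transcription. Bars stand at hid, rpr, skl and CG32196, while grim and the unlabelled genes between them have none above 0.136 CPM.

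Diap1 (FBgn0260635, 3L, 16038410 to 16051034, minus strand) fell with both phosphatase dsRNAs and did not pass the test in the Integrator-labelled groups. Its CPM was 28.2, 26.4 and 25.6 in the B-gal libraries and 27.0, 25.2 and 26.4 in the Mock libraries. With Pp2A-29B dsRNA it was 17.2, 16.9 and 18.1 CPM, and with mts dsRNA 22.4, 20.8 and 22.6 CPM. All 6 phosphatase libraries lay below all 6 control libraries, and the Pp2A-29B libraries lay below those of mts. Diap1 thus fell to 65.2% of the B-gal mean with Pp2A-29B dsRNA (log2 fold change -0.62, SE 0.08, adjusted p = 1.1e-05) and to 82.0% with mts dsRNA (-0.29, SE 0.08, adjusted p = 0.0067). The mts call ended without the filter (-0.23, adjusted p = 0.17) and when only these groups were fitted (-0.27, adjusted p = 0.054). Libraries labelled IntS4 dsRNA held 28.0, 29.2 and 28.4 CPM and those labelled IntS6 dsRNA 28.7, 27.5 and 31.3 CPM, which overlap the B-gal libraries (log2 fold changes 0.10 and 0.13, adjusted p = 0.34 and 0.21).

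The apoptosome genes Dronc (FBgn0026404, 3L, 9968479 to 9971002, plus strand) and Dark (FBgn0263864, 2R, 17020027 to 17026703, plus strand) rose in all 4 groups. Dronc, the initiator caspase, was at 9.49, 12.2 and 13.3 CPM in the B-gal libraries and at 11.2, 13.2 and 12.0 in the Mock libraries. It was at 24.6, 22.9 and 28.1 CPM with mts dsRNA, 16.2, 16.1 and 22.3 with Pp2A-29B dsRNA, 19.4, 20.6 and 20.1 in libraries labelled IntS4 dsRNA, and 18.1, 22.2 and 16.7 in those labelled IntS6 dsRNA. No library of these groups overlapped a control library, and the mts libraries were the highest. The log2 fold change of Dronc was 1.11 with mts dsRNA (SE 0.15, adjusted p = 6.5e-06), 0.78 in libraries labelled IntS4 dsRNA (adjusted p = 0.00027), 0.70 in those labelled IntS6 dsRNA (0.00078) and 0.64 with Pp2A-29B dsRNA (0.0023).

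Dark, the adaptor on which Dronc assembles, was at 15.6, 18.3 and 16.7 CPM in the B-gal libraries and 16.5, 17.5 and 15.1 in the Mock libraries. It was at 27.7, 29.9 and 24.4 CPM in libraries labelled IntS4 dsRNA, 26.4, 24.0 and 23.4 in those labelled IntS6 dsRNA, 28.4, 26.3 and 25.4 with mts dsRNA and 24.2, 24.9 and 25.1 with Pp2A-29B dsRNA. These 12 libraries all lay above the 6 controls and overlapped from group to group. The log2 fold changes were 0.70, 0.55, 0.66 and 0.55 in that order (SE 0.10 each, adjusted p = 9.5e-06, 0.00016, 2e-05 and 0.00022). An antisense gene, asRNA:CR44390, shares 2779 bases of exon with Dark and held 202 counts over all libraries. The sources used here do not say whether counting used the strand, so reads of overlapping genes may be shared.

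The effector caspase genes differed from each other. Drice (FBgn0019972, 3R, 29799658 to 29801584, plus strand) stayed within a narrow range, from 33.1 to 41.3 CPM over all 18 libraries. Its 3 B-gal libraries (33.1, 35.9 and 35.7 CPM) lay below the 3 Mock libraries (39.7, 41.3 and 36.4 CPM). With mts dsRNA (40.9, 40.2 and 39.0 CPM) it passed the test against B-gal at 0.20 on the log2 scale (SE 0.08, adjusted p = 0.04). Against Mock that value was 0.03 (adjusted p = 0.76), and the call also ended without any 1 of the 6 libraries (0.16 to 0.22, adjusted p = 0.053 to 0.13). The values against B-gal were 0.19 in libraries labelled IntS6 dsRNA (adjusted p = 0.057, and 0.038 with the replicate block), 0.10 in those labelled IntS4 dsRNA (0.28) and 0.09 with Pp2A-29B dsRNA (0.41).

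Dcp-1 (FBgn0010501, 2R, 23551313 to 23553547, plus strand) rose in the Integrator-labelled groups. It was at 22.3, 27.4 and 33.6 CPM with B-gal dsRNA, 24.0, 27.1 and 30.0 in Mock, 36.9, 34.3 and 46.8 in libraries labelled IntS4 dsRNA and 45.7, 50.3 and 45.1 in those labelled IntS6 dsRNA. All 6 Integrator-labelled libraries were above the 6 controls, though the B-gal libraries spread widely. The log2 fold change was 0.76 in libraries labelled IntS6 dsRNA (SE 0.15, adjusted p = 0.00034) and 0.50 in those labelled IntS4 dsRNA (SE 0.15, adjusted p = 0.0096). The latter call ended without the IntS4-labelled library of set C (0.35, adjusted p = 0.073) or the B-gal library of set A (0.36, adjusted p = 0.062). With mts dsRNA (24.4, 25.7 and 21.0 CPM) and Pp2A-29B dsRNA (28.0, 28.2 and 21.8 CPM) the libraries overlapped the controls (log2 fold changes -0.23 and -0.10, adjusted p = 0.22 and 0.65). The gene pita lies opposite Dcp-1 with 239 shared exon bases and 759 counts per library on average. It was lower in all 4 groups (log2 fold changes -0.31, -0.43, -0.60 and -0.43 for IntS4, IntS6, mts and Pp2A-29B), and its part in the Dcp-1 values was not tested.

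**Figure D3:**
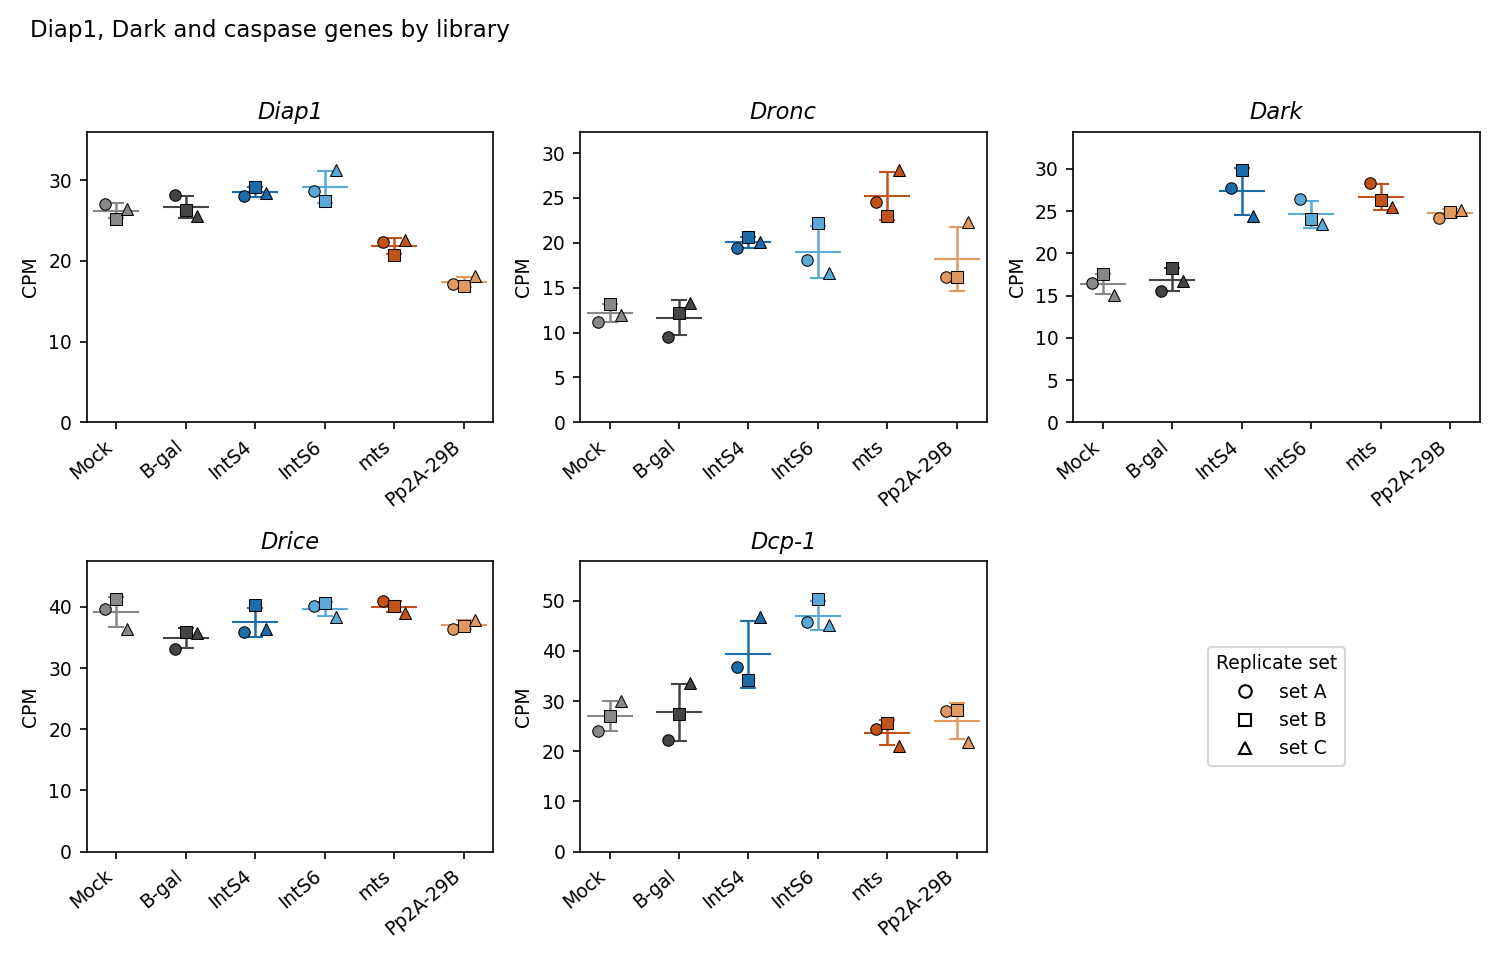
CPM of Diap1, Dronc, Dark, Drice and Dcp-1 in each library (symbols by replicate set), with the mean and SD of each group of 3 as bars; each axis starts at 0. Diap1 is lowest with Pp2A-29B dsRNA (16.9 to 18.1 CPM), Dronc and Dark are above the controls in all 4 gene-directed groups, and Dcp-1 is above them in the Integrator-labelled groups.

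Counted together, 5 of the 9 genes rose and 0 fell in libraries labelled IntS4 dsRNA, where 47.1% of the 8699 tested genes were called, 27% higher and 20.2% lower. In libraries labelled IntS6 dsRNA 5 rose and 0 fell, against 45.7% of all tested genes called (26.4% higher and 19.3% lower). With mts dsRNA 5 rose and 1 fell, against 51.4% (26.6% higher and 24.8% lower). With Pp2A-29B dsRNA 4 rose and 1 fell, against 38.8% (21% higher and 17.8% lower). With so many genes called in each group, such counts rest on few members, of which 7 could be tested, and hid and rpr passed the filter through the groups in which they were high. These 4 comparisons share the B-gal libraries. Between B-gal dsRNA and Mock, edgeR called 0 of the 9 and 0% of all tested genes, with 243 genes at an unadjusted p under 0.05, among them Drice (log2 fold change -0.16). DESeq2 also called 0, with 206 genes at such a p.

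**Figure D4:**
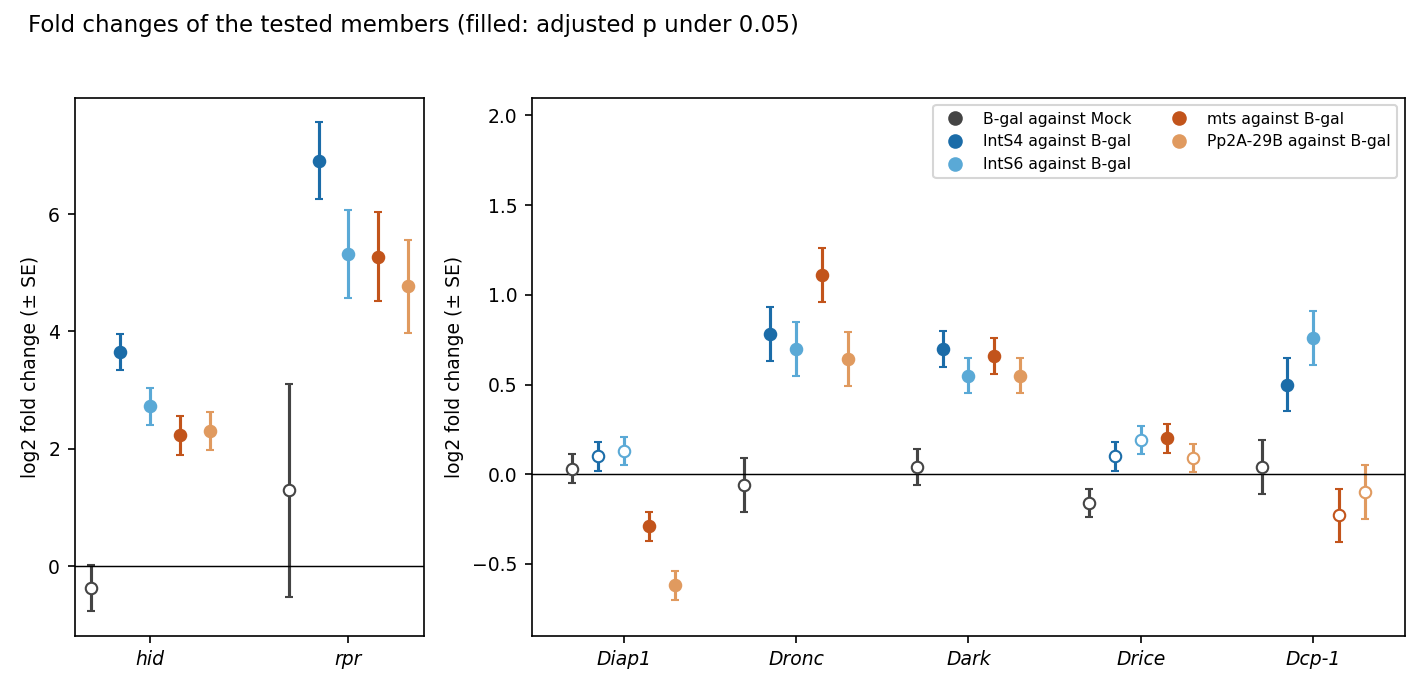
Log2 fold change with its standard error for the 7 tested genes in B-gal against Mock and in the 4 gene-directed dsRNAs against B-gal; filled points have an adjusted p under 0.05, and the scales of the panels differ. The values of hid and rpr reach 3.65 and 6.91, those of Diap1 are below 0 with mts and Pp2A-29B dsRNA, and those of Dcp-1 are filled for IntS4 and IntS6.

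Direct comparisons between the dsRNA groups showed which of these responses differed. Between the libraries labelled IntS6 and IntS4 dsRNA, 6.54% of genes were called, 2.53% higher and 4.01% lower, and among the 9 genes hid and rpr were lower with the IntS6 label. The log2 difference was -0.93 for hid (SE 0.23, adjusted p = 0.017) and -1.60 for rpr (SE 0.38, adjusted p = 0.012). The hid call ended without the IntS6-labelled library of set C or the IntS4-labelled library of set A or B, and the rpr call without the IntS6-labelled library of set B (adjusted p up to 0.094 and 0.07). The difference in Dcp-1 did not pass (0.26, SE 0.15, adjusted p = 0.39).

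Between Pp2A-29B and mts dsRNA, 9.75% of genes were called (4.81% higher and 4.94% lower). Diap1 was lower with Pp2A-29B dsRNA by -0.33 (SE 0.08, adjusted p = 0.018) and Dronc by -0.47 (SE 0.15, adjusted p = 0.0498). Neither call held throughout: that of Diap1 ended in 6 and that of Dronc in 6 of their 12 alternatives, among them the removal of the mts library of set A or C or the Pp2A-29B library of set A or B for both and of the mts library of set B for Dronc. The differences in hid (0.07, SE 0.26) and rpr (-0.49, SE 0.43) did not pass, with adjusted p = 0.91 and 0.51. Without the mts library of set C the rpr value turned to 0.11 (adjusted p = 0.91).

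Diap1 and Dcp-1 differed between both phosphatase groups and both Integrator-labelled groups. Between mts dsRNA and the IntS4 label, 52.4% of genes were called (30% lower), among them hid (-1.42, SE 0.24, adjusted p = 8.5e-05), rpr (-1.65, SE 0.38, adjusted p = 0.0015), Diap1 (-0.38, SE 0.08, adjusted p = 0.00065) and Dcp-1 (-0.73, SE 0.15, adjusted p = 0.00053), all lower with mts dsRNA. Without the mts library of set C the rpr value was -2.25, and without the filter the Diap1 call ended (-0.30, adjusted p = 0.0504). Dronc was 0.33 there (adjusted p = 0.065). That difference passed in 5 of its 12 alternatives: with DESeq2's size factors (adjusted p = 0.048), with ribosomal RNA left out (0.031), without the filter (0.017), with the replicate block (0.033) and with only the 2 groups fitted (0.01). Between Pp2A-29B dsRNA and the IntS4 label, 44.1% were called (26.1% lower), with the same 4 members lower: hid by -1.36, rpr by -2.14, Diap1 by -0.71 and Dcp-1 by -0.59 (adjusted p = 0.00015, 0.00022, 1.1e-06 and 0.0032).

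Against the IntS6 label, hid and rpr did not pass in the fit of all libraries while Diap1 and Dcp-1 did. With mts dsRNA, 50.4% of genes were called (22% higher and 28.4% lower). Diap1 was -0.41 (adjusted p = 0.00035), Dcp-1 -0.98 (2.6e-05) and Dronc 0.41 (0.025), and the Dronc call ended without the IntS6-labelled library of set A or C or the mts library of set C. With Pp2A-29B dsRNA, 42.1% were called (24.6% lower), and Diap1 was -0.74 (adjusted p = 7.2e-07) and Dcp-1 -0.85 (0.00013). For hid the difference was -0.49 with mts dsRNA (SE 0.25, adjusted p = 0.12) and -0.42 with Pp2A-29B dsRNA (SE 0.25, adjusted p = 0.19). For rpr it was -0.05 (SE 0.41, adjusted p = 0.93) and -0.54 (SE 0.42, adjusted p = 0.33), with errors too wide to show that these levels were alike. With mts dsRNA, hid passed without the IntS6-labelled library of set C (-0.70, adjusted p = 0.03), and rpr was -0.65 (0.21) without the mts library of set C.

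Levels of different genes can be compared as CPM per kilobase of exon, with all annotated exons of a gene counted, whichever of them the cells used. In the B-gal group the order was Drice at 18.1 ± 0.815 (SD, n = 3), Dcp-1 at 15.9 ± 3.26, Diap1 at 8.49 ± 0.430, Dronc at 5.78 ± 0.964, Dark at 3.45 ± 0.280, hid at 0.124 ± 0.0435 and rpr at 0.0626 ± 0.0630 CPM per kilobase. Drice and Dcp-1 lay within their spread of each other, as did hid and rpr. In libraries labelled IntS4 dsRNA, rpr stood at 9.05 ± 0.744 CPM per kilobase, within its spread of Diap1 at 9.08 ± 0.186, with Dronc at 9.95 ± 0.301 and hid at 1.58 ± 0.205. With mts dsRNA, Dronc at 12.5 ± 1.32 was above Diap1 at 6.97 ± 0.317, and rpr stood at 2.94 ± 1.97 CPM per kilobase.

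Within libraries, the level of Diap1 per kilobase was 1.51 ± 0.351 times that of Dronc with B-gal dsRNA and 1.39 ± 0.161 times in Mock (SD, n = 3). It was 0.913 ± 0.0107 times in libraries labelled IntS4 dsRNA, 1.00 ± 0.205 in those labelled IntS6 dsRNA, 0.559 ± 0.0393 with mts dsRNA and 0.624 ± 0.0913 with Pp2A-29B dsRNA. The transcript of the inhibitor was thus above that of the initiator caspase in all 6 control libraries and below it in all mts, Pp2A-29B and IntS4-labelled libraries, while the IntS6-labelled libraries fell on both sides. Dcp-1 stood at 0.873 ± 0.151 times the level of Drice with B-gal dsRNA, at 1.16 ± 0.241 and 1.30 ± 0.0560 in libraries labelled IntS4 and IntS6 dsRNA, and at 0.652 ± 0.0557 and 0.774 ± 0.121 with mts and Pp2A-29B dsRNA. These ratios were not tested.

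Genes with the pattern most like a member were sought over the 6 group means of log2 CPM, each gene centred on its own mean, among genes whose log2 CPM averaged 2 or more. The measure is the root mean square difference, and it was applied to members whose group means ranged over at least 1 log2 unit. By edgeR's average, hid and rpr were at 1.45 and 1.41 log2 CPM. They lay below the level asked of the other genes, so genes as low as they are were not searched. A prior count entered these log2 CPM, which narrows the range of low genes such as rpr. For hid the nearest were cv-2 (0.18), CG9331 (0.24) and CG12868 (0.24). For example, cv-2, a regulator of BMP signalling, was at 9.45 ± 1.22 CPM with B-gal dsRNA and at 72.2 ± 8.69, 48.2 ± 7.47, 34.7 ± 6.39 and 42.1 ± 5.01 CPM with the IntS4, IntS6, mts and Pp2A-29B dsRNAs. For rpr they were lncRNA:CR44138 (0.34), PPO3 (0.49), a prophenoloxidase gene of lamellocytes that is also among the markers above, and regucalcin (0.51). For Dronc they were CG7872 (0.045), and shot and Vinc (0.055 each), the last 2 encoding cytoskeletal linker proteins. Diap1, Dark, Drice and Dcp-1 ranged over less, at 0.74, 0.73, 0.20 and 0.99 log2 units.

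Other genes of the cell death pathway were followed in 9 lists of 66 genes in all, of which 58 were tested. In libraries labelled IntS4 dsRNA 22 rose and 8 fell, in those labelled IntS6 dsRNA 18 rose and 9 fell, with mts dsRNA 21 rose and 11 fell, and with Pp2A-29B dsRNA 14 rose and 9 fell. That is 51.7, 46.6, 55.2 and 39.7% of the 58 genes called, beside 47.1, 45.7, 51.4 and 38.8% of all tested genes, so the shares called lie near the background. The higher genes are 37.9, 31.0, 36.2 and 24.1% of the 58, beside 27, 26.4, 26.6 and 21% of all tested genes, and the lower ones 13.8, 15.5, 19 and 15.5%, beside 20.2, 19.3, 24.8 and 17.8%. Counts within a list rest on 11 genes or fewer and describe those genes, with these background shares in view. The median log2 fold changes of the 58 were 0.06, 0.01, 0.22 and 0.13, beside -0.01, -0.01, 0 and -0.01 over all tested genes.

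**Figure D5:**
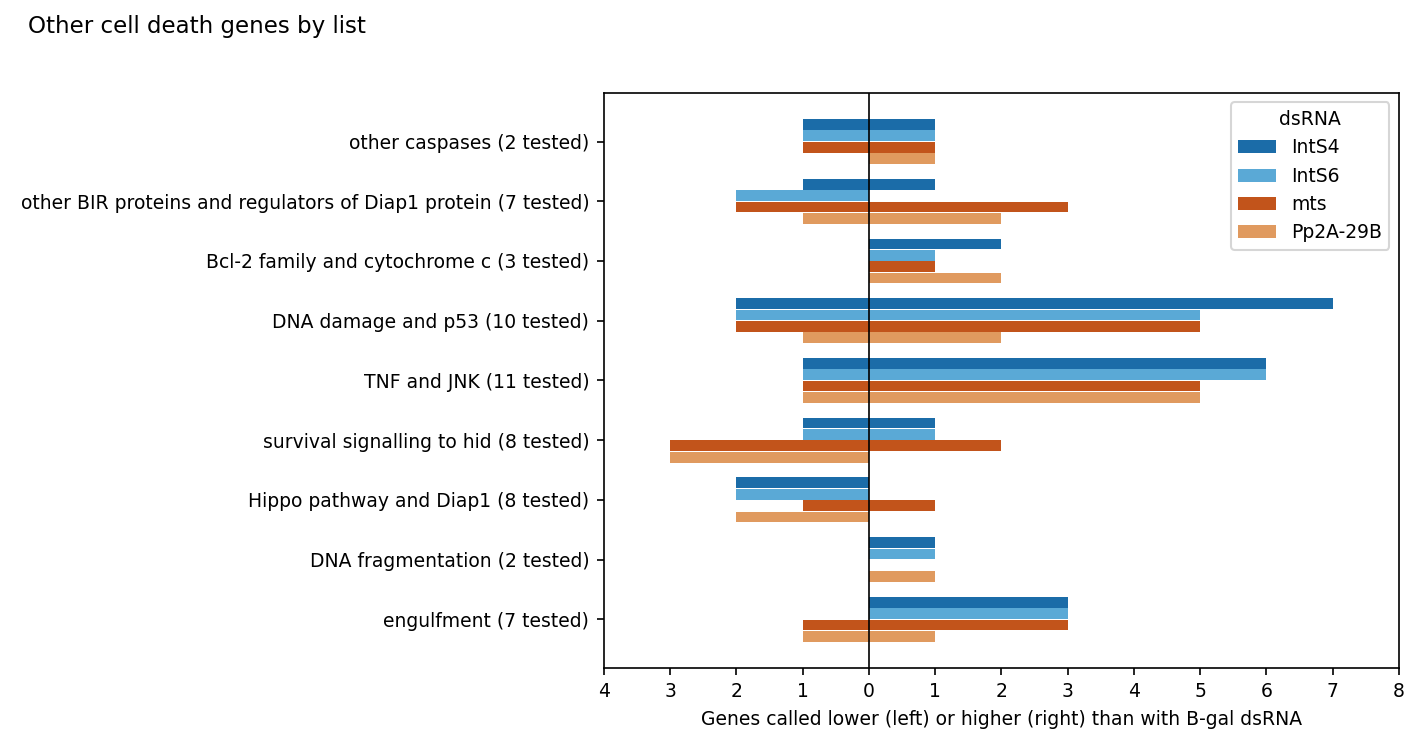
Number of genes of each list called higher (right of 0) or lower (left of 0) than with B-gal dsRNA, for the 4 gene-directed dsRNAs; the number of tested genes of each list stands beside its name. The DNA damage and p53 list reaches 7 of 10 higher for IntS4, and the TNF and JNK list 6 of 11 for IntS4 and IntS6.

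Upstream of the antagonists, the list of TNF and JNK signalling, which in flies can induce hid and rpr, had 6, 6, 5 and 5 of 11 tested genes higher and 1 lower for IntS4, IntS6, mts and Pp2A-29B, beside 27, 26.4, 26.6 and 21% of all tested genes higher. The ligand gene egr was at 0.317 ± 0.176 CPM with B-gal dsRNA and at 10.0 ± 0.811, 11.8 ± 1.11, 6.34 ± 4.53 and 5.62 ± 3.29 CPM (SD, n = 3), with log2 fold changes of 4.94, 5.17, 4.26 and 4.11 (adjusted p = 1.9e-06, 1e-06, 2.2e-05 and 5.7e-05), and the mts value was 3.67 without the set C library. It reached the filter level in 1 of 6 control libraries and 12 of 12 others, so it passed through the groups in which it was high, and against Mock its values were 4.27, 4.49, 3.58 and 3.43. The receptor gene wgn rose by 3.09 and 3.56 in the Integrator-labelled groups and by 1.04 with Pp2A-29B dsRNA, and was 0.31 with mts dsRNA (adjusted p = 0.42). The adaptor gene Traf4 rose by 3.87, 3.40, 0.94 and 1.69, a call that for mts ended without the mts library of set C or the B-gal library of set B. Jra, the fly Jun, rose by 1.39 with mts and 0.67 with Pp2A-29B dsRNA. The latter call ended against Mock (0.36, adjusted p = 0.12). In the libraries labelled IntS4 and IntS6 dsRNA, Jra was 0.42 and 0.39 (adjusted p = 0.065 and 0.081, and 0.011 and 0.014 with the replicate block).

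In the DNA damage and p53 list, 7, 5, 5 and 2 of 10 tested genes were higher and 2, 2, 2 and 1 lower in the same order, beside the same background shares of 27, 26.4, 26.6 and 21% higher. Corp, a p53 target that acts back on p53, rose by 4.77, 3.20 and 2.26 and was 1.23 with Pp2A-29B dsRNA (adjusted p = 0.088), though it reached the filter level in 0 of 6 control libraries and 9 of 12 others and passed through the groups in which it was high. Without the Pp2A-29B library of set B, that last Corp value passed (1.62, adjusted p = 0.02). Both Ku subunit genes were higher, Irbp by 1.14, 0.70, 0.81 and 0.79 and Ku80 by 1.08, 0.52 and 0.63, with Ku80 at 0.36 for Pp2A-29B (adjusted p = 0.068). This Ku80 value passed with ribosomal RNA left out (adjusted p = 0.048), with the replicate block (0.033) and without the B-gal library of set C (0.049). The Ku80 call for IntS6 ended without the B-gal library of set B (0.40, adjusted p = 0.058). The checkpoint kinase gene lok fell by 0.79, 0.41, 0.76 and 0.62, each below all B-gal libraries. The p53 gene itself, named here after its values were seen, was at 3.63 ± 0.645 CPM with B-gal dsRNA and 7.36 ± 1.22, 5.22 ± 0.608, 6.56 ± 1.74 and 6.83 ± 0.634 CPM in the 4 groups (log2 fold changes 1.02, 0.53, 0.85 and 0.92, adjusted p = 0.00022, 0.032, 0.0013 and 0.00096), and its IntS6 call ended against Mock and without the IntS6-labelled library of set A or C or the B-gal library of set B or C.

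EGFR signalling through Ras and MAP kinase restrains hid in flies. Of the 8 tested genes of that list, 1, 1, 2 and 0 were higher and 1, 1, 3 and 3 lower, beside 20.2, 19.3, 24.8 and 17.8% of all tested genes lower. The ligand gene spi fell in every group, by 0.49, 0.45, 1.48 and 1.21, but the first 2 calls ended without the B-gal library of set C (-0.28 and -0.24), and that for IntS6 also without the IntS6-labelled library of set A. The nuclear effector gene pnt fell by 1.16 with mts and 0.92 with Pp2A-29B dsRNA, and aop, its repressor counterpart, by 0.98 and 0.58. In the libraries labelled IntS4 and IntS6 dsRNA, pnt was -0.10 in each (adjusted p = 0.48 and 0.45) and aop was -0.21 and -0.24 (0.15 and 0.098, with aop at 0.031 in the IntS6 label under the replicate block). Without the B-gal library of set A, aop passed under both labels (-0.34 and -0.37, adjusted p = 0.019 and 0.011). Ras85D rose by 0.60 with mts dsRNA and was 0.14 with Pp2A-29B dsRNA (adjusted p = 0.28).

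The Hippo pathway controls Diap1 transcription through yki and its partner sd. In that list 0, 0, 1 and 0 of 8 genes were higher and 2, 2, 1 and 2 lower, against the same background of 20.2, 19.3, 24.8 and 17.8% lower. The kinase gene wts fell by 0.37, 0.52 and 0.26 in libraries labelled IntS4 and IntS6 dsRNA and with Pp2A-29B dsRNA, and the last call ended against Mock (-0.09, adjusted p = 0.32) and in 2 other alternatives. Myc, a growth regulator that is also a Yki target, fell by 1.00 with mts and 0.47 with Pp2A-29B dsRNA, the latter call ending against Mock (-0.27, adjusted p = 0.096). The yki transcript fell by 0.46 in libraries labelled IntS6 dsRNA and was -0.25 in those labelled IntS4 dsRNA (adjusted p = 0.1, and 0.023 with the replicate block). For sd, whose calls changed with the setting in all 4 groups, CPM was 226 ± 31.1 with B-gal dsRNA and 171 ± 13.5, 188 ± 32.2, 269 ± 10.0 and 280 ± 26.8.

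Among the other caspases, 2 of 4 were tested. Strica, a long-prodomain caspase, rose in all 4 groups, from 19.3 ± 4.23 CPM to 31.5 ± 4.56, 36.9 ± 3.62, 48.0 ± 2.59 and 35.8 ± 5.03 CPM (log2 fold changes 0.71, 0.93, 1.31 and 0.89, adjusted p = 0.0019, 0.00016, 3.9e-06 and 0.00039). Dredd, the caspase of the immune deficiency pathway, fell by 0.30, 0.30 and 0.39 and was -0.24 with Pp2A-29B dsRNA (adjusted p = 0.059). All 3 Dredd calls ended without the filter, and those for IntS4 and IntS6 also without the B-gal library of set C, the IntS4-labelled library of set C or the IntS6-labelled library of set B. The IntS4 and IntS6 calls also ended against Mock (-0.21 in each, adjusted p = 0.079 and 0.082). With only the 2 groups compared they ended too (0.06 and 0.059). The Pp2A-29B value of Dredd passed under the replicate block (0.047). The list of other IAP family (BIR) genes and regulators of Diap1 protein had 1, 0, 3 and 2 of 7 higher and 1, 2, 2 and 1 lower, or 2, 2, 5 and 3 called in all, beside 47.1, 45.7, 51.4 and 38.8% of all tested genes. Diap2, an IAP of the immune response, fell by 0.52, 0.59, 0.35 and 0.38. The last 2 calls ended without the filter and without the B-gal library of set B, the mts call also without that of mts set A or B or B-gal set A, and the Pp2A-29B call also without that of Pp2A-29B set A or C. The ubiquitin-conjugating enzyme gene eff rose by 0.42 and 0.46 with mts and Pp2A-29B dsRNA. Prx4, which encodes a peroxiredoxin that can bind Diap1, rose by 0.51 and 0.48 in these groups and fell by 0.54 in libraries labelled IntS6 dsRNA. The gene morgue, whose product promotes loss of Diap1 protein, rose by 0.68 in libraries labelled IntS4 dsRNA.

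Of the Bcl-2 family, Debcl rose by 0.46 in libraries labelled IntS4 dsRNA, by 1.18 with mts and by 0.90 with Pp2A-29B dsRNA, and was 0.07 in libraries labelled IntS6 dsRNA (adjusted p = 0.66). Buffy was without a count in the B-gal libraries. Set against 3 counts over that group, the ratio of its summed normalised counts was 16.5 in libraries labelled IntS4 dsRNA (48 counts). It was 24.9 in those labelled IntS6 dsRNA (71 counts) and 2.50 with Pp2A-29B dsRNA (7 counts), with 1 count with mts dsRNA. These ratios take the Buffy counts as exact and are not lower bounds. With the cytochrome c genes, 2, 1, 1 and 2 of the 3 tested genes of that list were higher, beside 27, 26.4, 26.6 and 21% of all tested genes. Buffy reached the filter level in 0 of 6 control libraries and 6 of 12 others, and so passed through the groups in which it was high, and its calls are among these counts. Downstream, 2 of 5 DNA fragmentation genes were tested, and Drep1, an inhibitor of the caspase-activated nuclease, rose by 0.79 and 1.27 in the Integrator-labelled groups and by 0.47 with Pp2A-29B dsRNA, where the call ended without the Pp2A-29B library of set A (0.28, adjusted p = 0.22) or the B-gal library of set A or B.

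Engulfment genes, which act in the cells that clear corpses and are also haemocyte genes, had 3, 3, 3 and 1 of 7 tested members higher and 0, 0, 1 and 1 lower, beside 27, 26.4, 26.6 and 21% of all tested genes higher. The receptor gene drpr rose from 50.4 ± 5.49 CPM by 0.98, 1.02 and 0.63, and was 0.33 with Pp2A-29B dsRNA (adjusted p = 0.12, and 0.042 without the filter). The Rac activator gene mbc rose in all 4 groups, by 1.07, 0.90, 1.05 and 0.70. The scavenger receptor gene crq, which is also 1 of the 7 plasmatocyte markers, rose by 0.55 and 0.95 in the Integrator-labelled groups, the former call ending without the IntS4-labelled library of set C or the B-gal library of set A. With mts dsRNA crq was 0.36 (adjusted p = 0.078, and 0.0092 with the replicate block), and Shark, a kinase that acts with drpr, rose by 0.43.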

How the data were processed

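The values deposited by the authors are estimated counts without normalization, in 1 table, of which 90.1% were whole within 0.005. The submitters' processing notes name Trimmomatic 0.39, featureCounts and the builds dm6 and BDGP6. The aligner and the strand setting of counting are not given in the sources used here. Libraries were strand-specific and depleted of ribosomal RNA, per the labels' protocols.

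These were rounded to whole numbers, since the test had been planned for whole counts. In edgeR 4.0.16 (R 4.3.3), 1 quasi-likelihood model of the 6 groups with TMM scaling was fitted to the 8699 genes that filterByExpr kept at its count minimum of 10, with 12 residual degrees of freedom. Every log2 fold change and its adjusted p (Benjamini-Hochberg over all tested genes, two-sided) comes from this fit unless an alternative is named beside it. The SE is not an output of the model. Each was worked back from the size of the log2 fold change and the F statistic of its test. The prior count enters the fold change but not that statistic, so the SE is approximate for low counts such as those of rpr. The words "called", "rose" and "fell" mean an adjusted p under 0.05. Symbols, coordinates and exon lengths come from the Ensembl 115 annotation of BDGP6. The 138 ribosomal RNA entries stayed in the library totals, which left 3545828 to 6325688 other counts per library. No 2 libraries held identical values. Intervals and floors cover counting error only, and the floors do so only for the group without counts.

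All choices of members, lists, comparisons and named genes were made with earlier results of these data known. The rule for naming takes all 9 members and, from each list, up to 4 genes with the smallest adjusted p against B-gal among those called. For each member whose group means range over at least 1 log2 unit it takes the 3 most similar genes. The replicate letters mark biological replicate sets, per the labels' design text, which does not say how the sets were grown. Deviations of same-letter libraries from their group means correlated above 0.1 in all 3 sets between B-gal and each of Mock (lowest value 0.57), IntS4 (0.38), IntS6 (0.25) and mts (0.13), and between mts and each of Pp2A-29B (0.17) and IntS4 (0.12). Between B-gal and mts, and between mts and IntS4, the highest value for libraries of different letters (0.23 and 0.19) was above the lowest same-letter value. Pairing by letter is therefore not shown there. In the other comparisons named, every same-letter value was above all values for different letters. The reported tests have no block, and a fit with the letter as replicate block was an alternative. The others were DESeq2 1.42.0, its size factors, ribosomal RNA left out, no filter, only the 2 groups compared, Mock as control and each library left out.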

Additional observations from a re-analysis of the deposited data

How the results depend on the processing

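Of 951 values of a member under an alternative, 911 kept the direction of any call and its side of the threshold, 33 no longer passed and 7 newly passed, and no called value changed sign. The number of members called against B-gal with each library left out in turn was 4 to 5 for IntS4, 5 for IntS6, 5 for mts and 5 for Pp2A-29B, beside 5, 5, 6 and 5 with all libraries, and it stayed at 0 for B-gal against Mock. For Pp2A-29B against mts, 2 members were called, but 1 without the filter, 0 with only these 2 groups fitted, and 0 to 2 with a library left out. For IntS6 against IntS4 the leave-one-out range was 1 to 2. In the comparisons with same-letter values above 0.1, the replicate block added Drice for IntS6 (log2 fold change 0.19, adjusted p = 0.038) and Dronc for mts against IntS4 (0.033). It changed no other call of a member. Over all genes it moved the number called from 848 to 1457 for Pp2A-29B against mts and called 0 for B-gal against Mock (358 at an unadjusted p under 0.05). It also moved the number from 569 to 943 for IntS6 against IntS4, where the lowest same-letter correlation was 0.058. Without 1 library, 266 to 1093 genes were called for Pp2A-29B against mts. Low depth outside ribosomal RNA limits hid, rpr, skl and grim, whose control levels rest on at most 14 counts per library, and the comparisons of rpr among groups.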
